A study of Mus musculus with 2 samples.

Results

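Mir199a-1, Mir199a-2, Mir199b and Mir214 are 4 microRNA (miRNA) genes that lie antisense to dynamin genes and whose products are best known from mesenchyme. They were picked by their symbols in the GENCODE M21 annotation, and all 4 were found among the 2202 miRNA genes counted in mouse adrenal gland. The glands came from male B6CASTF1/J mice aged 2 months, which are first-generation hybrids of a laboratory strain and a castaneus-derived strain. There was 1 group of 2 libraries, replicate 1 from animal 3 and replicate 2 from animal 4, and no treatment or second tissue. The labels number the males separately and call them biological replicates, but place both under 1 donor record, so the spread between the libraries may be partly technical. Whole glands were sequenced, with cortex, medulla, capsule and vessels together, and fewer cells of a type cannot be told apart from less RNA per cell.

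miRNAs are cut from hairpin precursors into products of about the length of a small RNA read, the 5p product from one arm and the 3p product from the other. They pair with messenger RNAs mainly through the seed, bases 2 to 8 of the product, and lower the output of those messages. Mir199a-2 and Mir214 are carried by Dnm3os, a long non-coding RNA transcribed from within Dnm3 in the opposite direction, which in mouse is needed for normal skeletal growth. In mouse embryos the transcription factor Twist1 drives this transcript in mesenchymal tissue. In adult organs miR-199 and miR-214 are known from fibroblasts and other stromal cells, and in the adrenal gland cells of that kind form the capsule and the stroma.

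The mature products are shown first because they decide which of the 4 genes a read can be assigned to. The sequences are those of RefSeq on GRCm38.p6, which matched all 4 genes, and the seed is in capitals.
miR-199a-5p (from Mir199a-1 and Mir199a-2): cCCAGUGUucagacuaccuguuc
miR-199a-3p and miR-199b-3p (from all 3 Mir199 genes): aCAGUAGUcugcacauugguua
miR-214-5p (from Mir214): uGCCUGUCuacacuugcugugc
miR-214-3p (from Mir214): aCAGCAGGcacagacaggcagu
miR-761 (from Mir761, with the seed of miR-214-3p): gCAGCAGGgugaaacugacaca
The 3p product was letter for letter the same in 3 miRNA genes, and miR-199a-5p was the same in 2. Both products of Mir214 were found in 1 miRNA gene each. Outside miRNA genes, the 4 distinct products of these genes occurred in only 1 further annotated gene of GENCODE M21, the host transcript Dnm3os. The rest of the genome was not searched. The seed of miR-214-3p was shared with 1 other gene of the RefSeq table, Mir761, and the seeds of the other products with no gene beyond these 4.

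Mir199b differs from the Mir199a genes on its 5p arm. Its hairpin holds a stretch at the place of miR-199a-5p that differs by 1 base of 23, C10U, counted from 1 at the 5′ end of the product and giving the base of miR-199a-5p first. The differing base is in capitals here.
miR-199a-5p: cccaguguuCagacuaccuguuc
Mir199b stretch (chr2:32318485-32318507, plus strand): cccaguguuUagacuaccuguuc
The difference lies outside the seed, so the seed letters are the same in both. The stretch of Mir199b was found in 1 miRNA gene, Mir199b itself. A read of this whole stretch can thus be told from one of miR-199a-5p by that base, while a read of the 3p product cannot be told apart among the 3 genes.

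The hairpins show how far the shared sequence reaches beyond the products, which are in capitals where RefSeq lists them (GRCm38, plus strand but for Mir199a-1, which is on the minus strand).
Mir214 (chr1:162223368-162223477): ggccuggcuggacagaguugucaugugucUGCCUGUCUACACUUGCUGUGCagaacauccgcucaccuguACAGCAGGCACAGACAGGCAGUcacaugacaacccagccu
Mir199b (chr2:32318460-32318569): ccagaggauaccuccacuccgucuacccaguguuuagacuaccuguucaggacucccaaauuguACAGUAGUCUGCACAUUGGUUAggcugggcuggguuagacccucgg
Mir199a-2 (chr1:162217814-162217923): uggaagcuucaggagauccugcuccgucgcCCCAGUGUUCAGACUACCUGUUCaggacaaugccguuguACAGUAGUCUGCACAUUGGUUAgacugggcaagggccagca
Mir199a-1 (chr9:21496495-21496564): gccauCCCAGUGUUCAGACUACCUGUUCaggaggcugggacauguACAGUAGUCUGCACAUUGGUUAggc
The annotated hairpins are 110 bases long for Mir214, Mir199b and Mir199a-2, and 70 for Mir199a-1. In global alignment, Mir199a-1 was identical to Mir199a-2 at 63 of 68 aligned bases (92.6%) and to Mir199b at 63 of 68 (92.6%). Mir199a-2 and Mir199b were identical at 86 of 101 aligned bases (85.1%). The longest run shared by any pair of Mir199 hairpins was 27 or 28 bases, longer than a product. Mir214 shared no run longer than 7 bases with any of them.

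Windows of 22 bases, about the length of a product, were then looked up in all 2202 hairpins on both strands. All 89 windows of Mir214 (100%) occurred in no other miRNA gene. In Mir199b 81 of 89 windows (91.0%) did so, in Mir199a-2 77 of 89 (86.5%) and in Mir199a-1 36 of 49 (73.5%). The shared windows lay at the products. In Mir199a-2 they started at bases 31 to 36 and 66 to 71 of the hairpin, and its products start at bases 31 and 70. In Mir199b they started at bases 61 to 68 alone, around the 3p product at base 65, and no window of the 5p stretch, which starts at base 26, was shared.

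**Figure D1:**
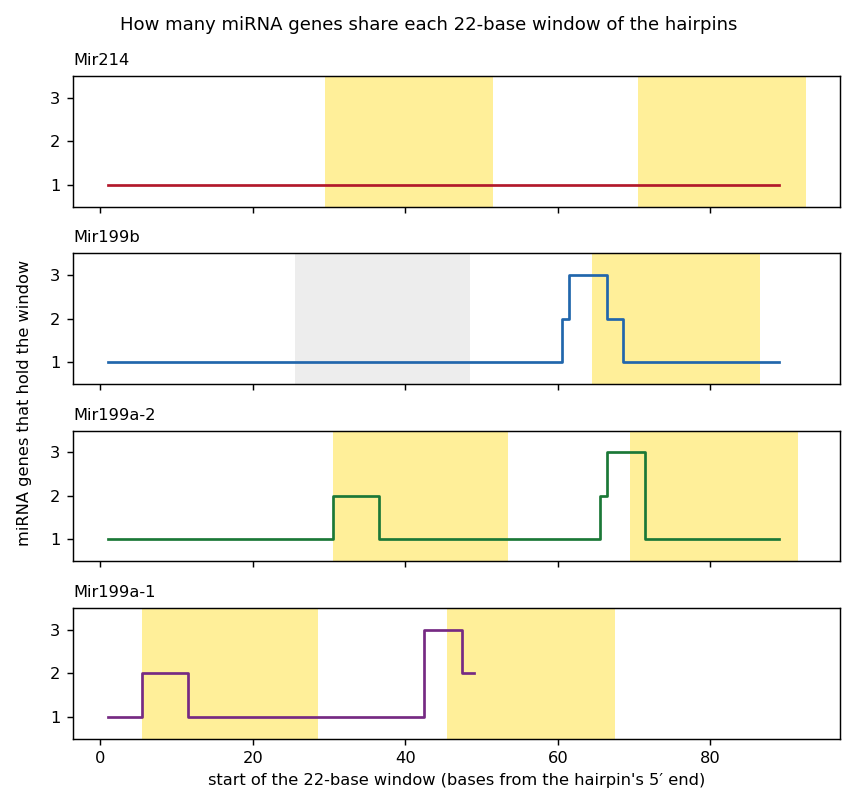
Number of miRNA genes that hold each 22-base window (vertical axis, 1 to 3) against the window's start in bases from the hairpin's 5′ end, 1 panel per gene. Yellow marks the products RefSeq lists and grey the Mir199b stretch at the place of miR-199a-5p; Mir214 stays at 1 gene throughout, while the Mir199 panels step up to 2 or 3 genes at the products.

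Mir214 is on chromosome 1 in Dnm3os, whose annotated transcripts contain it in an exon in 2 of 3 cases and overlap it with part of an exon in the other 1. Mir199a-2 lies 5444 bases upstream in the same transcript, inside an exon of 2 of 5 Dnm3os transcripts and overlapping part of an exon of the other 3. On the opposite strand both lie in an intron of all 4 Dnm3 transcripts that span them. Mir199b on chromosome 2 lies opposite an intron of Dnm1 in all 10 spanning transcripts, and Mir199a-1 on chromosome 9 opposite an intron of Dnm2 in all 10. Their identifiers in the files are ENSMUSG00000065516.1 for Mir214, ENSMUSG00000070126.1 for Mir199a-2, ENSMUSG00000092807.1 for Mir199b and ENSMUSG00000065547.1 for Mir199a-1. The dynamins encoded by the opposite strands are GTPases that pinch vesicles off the cell membrane.

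Replicate 1 held 17000342 reads and replicate 2 held 10752051, and 5752428 and 3333149 of them fell on the strand of an annotated miRNA gene. Levels are given as CPM, a gene's counts per 1000000 of these, and 1 count was worth 0.174 CPM in replicate 1 and 0.300 CPM in replicate 2. Reads aligned to several places made up a row of their own in the files, 4455365 reads in replicate 1 and 3096387 in replicate 2, and were not counted at genes. The neuroendocrine markers Mir375 and Mir7b, which the adrenal medulla expresses, were both past 2 CPM in both libraries, the level taken here as detected; the marker lists hold no gene that defines the cortex.

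Mir214 carried nearly all counts of the 4 genes. It had 4223 counts in replicate 1, or 734 CPM (95% Clopper-Pearson interval 712 to 757), and 5013 counts in replicate 2, or 1504 CPM (1463 to 1546). The mean was 1119 ± 544 CPM (SD, n = 2). It ranked 85 of 2202 miRNA genes in replicate 1 and 61 in replicate 2, and held 0.0734% and 0.150% of the miRNA counts. Of the counts of the 4 genes together, 4373 in replicate 1 and 5075 in replicate 2, Mir214 made up 96.6% and 98.8%. All such intervals cover counting error alone and take each read as its own molecule, which PCR copies would break.

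Mir199b was the highest of the Mir199 genes in both animals. It had 118 counts in replicate 1, or 20.5 CPM (17.0 to 24.6), and 40 in replicate 2, or 12.0 CPM (8.57 to 16.3), with a mean of 16.3 ± 6.02 CPM (SD, n = 2). Its ranks were 259 and 287. It is the Mir199 gene whose 5p stretch is found in no other miRNA gene. Whether its counts came from that stretch was not tested, as the counts are per gene.

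Mir199a-2, which encodes both miR-199a products, had 32 counts in replicate 1 and 21 in replicate 2. That is 5.56 CPM (3.81 to 7.85) in replicate 1 and 6.30 CPM (3.90 to 9.63) in replicate 2, with a mean of 5.93 ± 0.521 CPM (SD, n = 2). Its ranks of 321 and 320 were nearly level. Mir199a-1, the second gene for the same products, had a count of 0 in replicate 1, which allows up to 0.522 CPM, and 1 count in replicate 2, or 0.300 CPM (0.00760 to 1.67). It was the only one of the 4 below 2 CPM in both libraries, the level that 372 of all 2202 genes reached in both.

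The order was Mir214, Mir199b, Mir199a-2 and Mir199a-1 in both animals. The intervals of Mir214 and Mir199b were far apart, and those of Mir199a-2 and Mir199a-1 did not overlap either. The intervals of Mir199b and Mir199a-2 were apart in replicate 1 and overlapped in replicate 2, where the ratio of the 2 genes was nonetheless above 1 (1.90, 95% interval 1.10 to 3.40). These levels are of reads assigned to 1 place. The 3 Mir199 genes summed to 150 counts in replicate 1 and 62 in replicate 2, a sum of 26.1 and 18.6 CPM. How many of the reads aligned to several places were miR-199 products was not tested, since the files do not split that row by sequence. The sum is therefore a lower limit for the family's reads, and the order among the 3 genes, and their place below Mir214, holds for assigned reads alone.

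**Figure D2:**
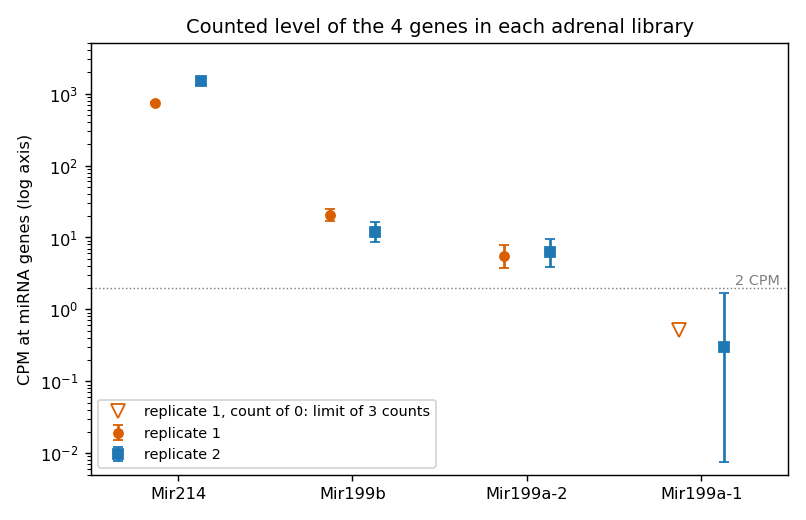
Level in CPM at miRNA genes (log axis) of each gene in replicate 1 (circles) and replicate 2 (squares), with 95% Clopper-Pearson intervals; the open triangle is the limit of 3 counts for the count of 0 of Mir199a-1. Mir214 stands at 734 and 1504 CPM and the Mir199 genes at 20.5 CPM or less.

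Other genes also have products held by several miRNA genes. Of 53 genes in the RefSeq table whose listed products are all held by several miRNA genes, 6 (11.3%) were past 2 CPM in both libraries, among them Mir199b and Mir199a-2. Of 904 genes whose listed products are each held by 1 miRNA gene, 286 (31.6%) were. Between these classes, 61 genes have some but not all listed products held by several miRNA genes. Of these 42 (68.9%) were past 2 CPM in both libraries, the highest share, so the shares do not follow sharing in order. Whether sharing lowers the counts was not tested. Genes of the first class can still be counted high, as Mirlet7c-2 with a mean of 2252 CPM heads it.

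**Figure D3:**
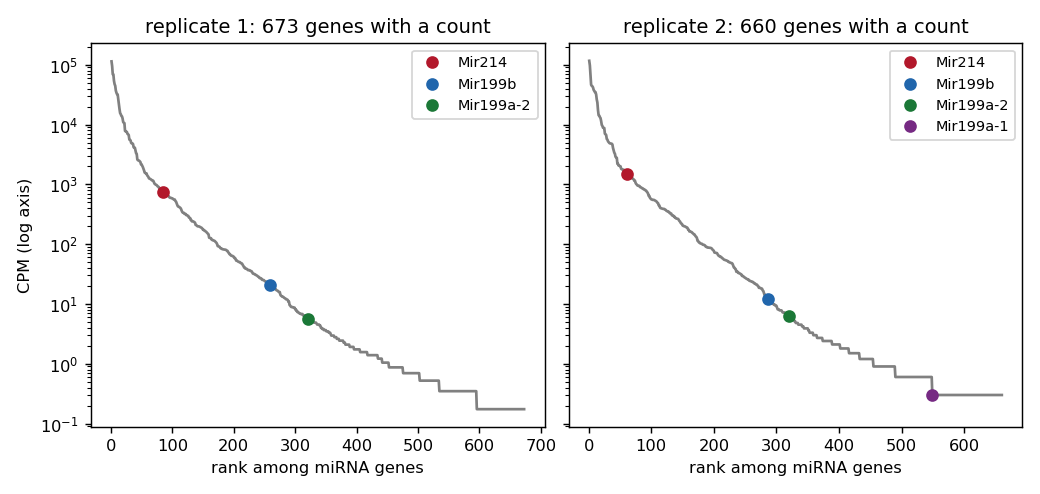
CPM (log axis) of all miRNA genes with a count, 673 in replicate 1 (left) and 660 in replicate 2 (right), ordered by rank, with the counted members as coloured points. Mir214 lies at rank 85 in replicate 1 and 61 in replicate 2, and Mir199b and Mir199a-2 lie between ranks 259 and 321.

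Strand did not change these counts. The column for the opposite strand held 0 counts at each of the 4 genes in both libraries, and the column without regard to strand held the same counts as that for the gene's strand. No read assigned at these hairpins thus lay on the strand of Dnm1, Dnm2 or Dnm3.

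Mir214 and Mir199a-2 share Dnm3os but were counted at very different levels. Mir214 had 132 times the counts of Mir199a-2 in replicate 1 (95% interval 93.3 to 193) and 239 times in replicate 2 (156 to 386). The mean was 7.47 ± 0.60 on the log2 scale (SD, n = 2), and the intervals of the 2 animals overlapped. The ratio differed 1.81-fold between the animals, and overlap of intervals does not show that it was the same in both. As these ratios are taken within a library, no scaling enters them. For comparison, the ratio of the higher to the lower gene, with 0.5 counts added to each, was taken for all 153 pairs of neighbouring miRNA genes of the same strand within 10 kb that had 10 or more counts in mean for at least 1 gene. Their median was 4.35 on the log2 scale and their range 0.0034 to 14.2. Mir214 and Mir199a-2 came at place 33 of the 153 with 7.44. Of the 33 pairs at or above this one, itself included, 16 have a lower gene with no product in the RefSeq table. There were 26 such pairs, with a median of 7.77, and where the lower gene had no counts the ratio rests on the 0.5 added. In 100 of the pairs the lower gene has products held by 1 miRNA gene each, and 12 of these lay at or above this pair. In 25 pairs some products of the lower gene are held by several miRNA genes, and 4 of these lay there. The class of this pair, with all products of the lower gene held by several miRNA genes, has only 2 pairs.

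**Figure D4:**
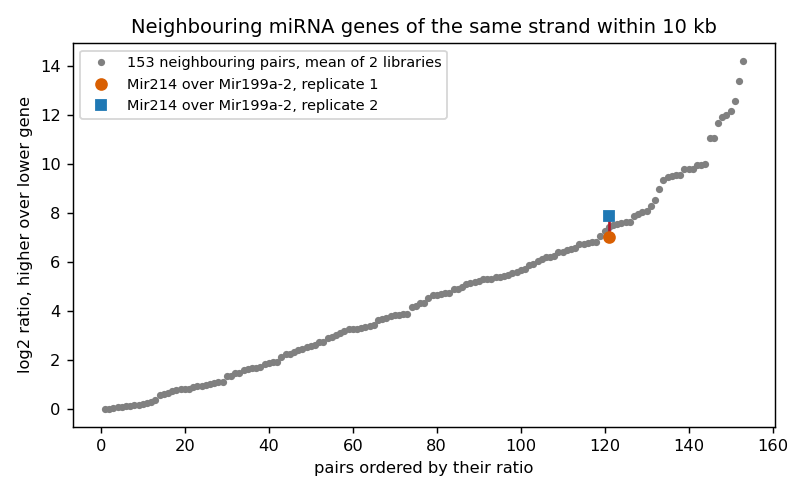
Log2 ratio of the higher to the lower gene (vertical axis) for 153 neighbouring pairs ordered by that ratio (horizontal axis), as means of both libraries. The coloured points show Mir214 over Mir199a-2, at 7.02 in replicate 1 and 7.87 in replicate 2.

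The ratio of Mir214 to Mir199b, which are on different chromosomes, differed more between the animals. It was 35.8 in replicate 1 (29.8 to 43.3) and 125 in replicate 2 (91.9 to 176), and these intervals did not overlap. Mir199b over Mir199a-2 stood at 3.69 (2.48 to 5.63) in replicate 1, an interval that overlapped that of replicate 2. That ratio differed 1.94-fold between the animals, and the overlap is no test of this difference.

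The animals could be set against each other only as 1 library against 1. The comparison used a two-sided exact binomial test on the counts, scaled by TMM, over the 389 genes whose counts averaged 10 or more, adjusted by Benjamini-Hochberg. It covers counting error and compares these libraries, not conditions. It called 59.6% of all genes tested, so a call by it is common and is no sign of anything particular to a gene. Of the members, 3 were tested, and Mir199a-1 had too few counts. Of the 3, 1 was higher in replicate 1, as were 30.8% of all genes tested, and 1 was lower, as were 28.8%.

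Mir214 had 786 TMM-scaled CPM in replicate 1 and 1404 in replicate 2. It was lower in replicate 1, with a log2 ratio of replicate 1 over replicate 2 of -0.84 (SE 0.03 from counting, adjusted p of the exact binomial test 7.92e-169). Of the 389 genes, 43 (11.1%) had a lower ratio than Mir214.

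Mir199b went the other way, with 21.97 TMM-scaled CPM in replicate 1 and 11.2 in replicate 2. It was higher in replicate 1, with a log2 ratio of 0.96 (SE 0.26, adjusted p of the exact binomial test 0.000352). A higher ratio was seen in 32 of the 389 genes. Mir199a-2 had 5.96 TMM-scaled CPM in replicate 1 and 5.88 in replicate 2, a log2 ratio of 0.01 (SE 0.40, adjusted p of the exact binomial test 1). Its sign turned to -0.19 by total counts, so no direction can be given for it.

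Neither called member reached 2-fold after TMM scaling, a size that 14.4% of all genes tested reached. By total counts Mir214 passed it, at -1.03. When the spread between animals was estimated from the same libraries, with a coefficient of variation of 0.361 in edgeR, the exact test of edgeR with that common dispersion called neither Mir214 (p = 0.268, adjusted p = 1) nor Mir199b (p = 0.234, adjusted p = 1). That test called 4 of 389 genes, and 16 had an unadjusted p under 0.05. As the dispersion comes from the same libraries that are set against each other, these p-values decide nothing about the differences of Mir214 and Mir199b, which have no replicate check.

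**Figure D5:**
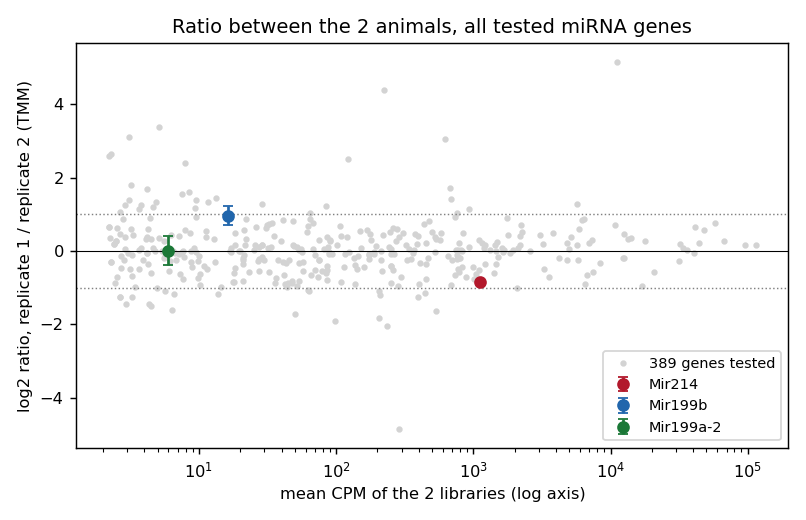
Log2 ratio of replicate 1 over replicate 2 after TMM scaling (vertical axis) against mean CPM (log axis) for 389 miRNA genes, with bars of 1 counting SE on the members; dotted lines mark 2-fold. Mir214 lies at -0.84, Mir199b at 0.96 and Mir199a-2 at 0.01, all inside the dotted lines.

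A list of 21 genes was set beside the members, made up of genes known from fibroblasts, pericytes, smooth muscle or cartilage, and of Mir761 for its seed. Of these 19 were tested, 7 were higher in replicate 1, 9 lower and 3 not called, with a median log2 ratio of -0.09, against 0.01 for all genes tested. By total counts 1 was higher and 15 lower, with a median of -0.29 against -0.19 for all genes. TMM raised every log2 ratio by 0.20 against total counts, so the split between higher and lower calls depends on the scaling, for the list and for all genes (120 higher and 112 lower by TMM, 85 and 170 by total counts). The calls of Mir214 and Mir199b stood under both.

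Among the 19 tested genes of the list, Mir22 had the lowest ratio, -0.95, and Mir10b, from the Hoxd cluster, the highest, 0.36, so none of the 19 reached 2-fold. Mir145b, with 1 count in replicate 1 and 4 in replicate 2, and Mir761 were not tested. Mir497 followed Mir22 closely at -0.93, at 430 CPM (replicate 1) and 940 CPM (replicate 2). The smooth muscle gene Mir143 stood at 31774 CPM (replicate 1) and 31884 CPM (replicate 2), a log2 ratio of 0.19 after TMM. Mir145a, from the same cluster as Mir143, stood at 984 CPM (replicate 1) and 1434 CPM (replicate 2), a log2 ratio of -0.34. Mir140, a gene of cartilage, had 1158 and 1247 CPM, a log2 ratio of 0.09.

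Of the 21 listed genes, 9 were above Mir214 in both animals. Mir143 had 43.3 times the counts of Mir214 in replicate 1 (42.0 to 44.6) and 21.2 times in replicate 2 (20.6 to 21.8). Mir145a and Mir214 changed order, at a ratio of 1.34 in replicate 1 and 0.954 in replicate 2. Mir761, which carries the seed of miR-214-3p, had a count of 0 in both libraries, which allows up to 0.522 CPM (replicate 1) and 0.900 CPM (replicate 2). The counts are per gene and do not split the 5p and 3p products of Mir214.

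The genes whose levels lay nearest to Mir214 were found by Euclidean distance over log2(CPM + 1) in the 2 libraries, among 386 other tested genes. They were Mir27a (distance 0.170), Mir122 (0.197), Mir409 (0.223), Mir431 (0.326) and Mir145a (0.428). Mir27a stood at 759 CPM (replicate 1) and 1343 CPM (replicate 2), and Mir122, the main hepatocyte miRNA, had 690 and 1331 CPM. Their log2 ratios after TMM ran from -0.75 for Mir122 to -0.34 for Mir145a. Nearest to Mir199b were Mir3547 (0.429), Mir106a (0.564) and Mir5113 (0.576). With 2 libraries this likeness is one of level and of a single ratio.

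Summed by list, markers of some cell types moved between the animals, and those of others hardly did. The smooth muscle genes Mir143 and Mir145a and the brown fat gene Mir455 are also among the 21 genes above. Mir143 (log2 ratio 0.19) and Mir145a (-0.34) went opposite ways. Mir455 held 1542 CPM (replicate 1) and 1676 CPM (replicate 2) of the brown fat sums. After TMM the log2 ratio of the summed counts, replicate 1 over replicate 2, was 4.86 for the erythroid list. It was 0.86 for striated muscle, -0.75 for hepatocyte, 0.70 for neuroendocrine and 0.40 for epithelial. It was 0.28 for endothelial, 0.17 for smooth muscle, 0.12 for brown fat and 0.06 for white blood cells. The CPM below are by total counts. The 3 erythroid genes were all detected and held 22813 CPM in sum in replicate 1 against 901 in replicate 2. The 1 hepatocyte gene, Mir122, was lower in replicate 1, with the values above. The 2 smooth muscle genes held 32759 CPM in sum in replicate 1 and 33318 in replicate 2, the 5 white blood cell genes 2956 and 3251 CPM, and the 5 epithelial genes 58.2 and 50.7 CPM, with all 12 of these genes detected. Of 9 striated muscle genes 3 were detected, with a sum of 719 CPM (replicate 1) and 454 CPM (replicate 2), and Mir1a-1 and Mir133a-2 were at 0 in both. The striated muscle genes did not move together, as Mir206 was higher in replicate 2, against the direction of the sum. The log2 ratio of Mir206 over its neighbour Mir133b, with 0.5 counts added, was 8.29 in replicate 1 and 11.34 in replicate 2. Mir133b had 1 count in replicate 1 and 0 in replicate 2. Of 2 endothelial genes 1 was detected, with a sum of 69154 and 65135 CPM. The 2 neuroendocrine genes held 72445 CPM in sum in replicate 1 and 51056 in replicate 2, and the 4 brown fat genes 1867 and 1970 CPM, all of them detected. The part of other cell types in the differences of Mir214 and Mir199b was not tested.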

How the data were processed

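Small RNA of under 30 nt from total RNA of 2 adrenal glands was made into 1 library for each animal, per the labels. The authors deposited raw read counts for each miRNA gene, on mm10 with GENCODE M21, per the descriptions deposited beside each library. Each file has 3 count columns (without regard to strand, gene's strand, opposite strand, read from their values), and the gene's strand was used. Aligner and trimming settings: not given in the sources used here. The 4 rows that name no gene (66.2% of reads in replicate 1 and 69.0% in replicate 2) stayed out of totals and tests. All 2202 identifiers matched GENCODE M21, whose hairpins equalled those of RefSeq for the 4 genes.

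The test, with a threshold of 0.05, was run on simulated libraries of the same 389 genes, drawn with counting error alone. There it called 0 of 389 unchanged genes, and 89.0% of 200 genes changed 2-fold with 5 false calls. As the simulation holds no spread between animals, it cannot show how often the test calls unchanged genes in real libraries. Log2 ratios had 0.5 counts added. A count of 0 was taken to allow 3 counts. Named were the 4 genes, the 5 nearest to Mir214, the 3 nearest to Mir199b, genes sharing a seed, and listed genes a result turned on. The members, lists and tests were chosen with earlier results of these data known; the total without erythroid genes was added after seeing the data. Alternatives covered strand, denominators, scaling, added counts, filters, dispersion, single libraries and window length. Tools were edgeR 4.0.16 (TMM, dispersion) and DESeq2 1.42.0 (size factors) in R 4.3.3, and SciPy 1.17.1, statsmodels 0.14.6, Biopython 1.88, pandas 2.3.3, NumPy 2.4.6 and matplotlib 3.10.9 in Python 3.11.15.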

Additional observations from a re-analysis of the deposited data

How the results depend on the processing

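The log2 ratios of Mir214 and Mir199b kept their direction under all alternatives that gave them a value. Of 112 alternative values, 86 were counted as unchanged, by rules that differed between the kinds of result. The values with single libraries left out could not be counted otherwise, as each library always lies within the SD of the pair. The 86 therefore include values that test nothing, and no conclusion on stability is drawn from that number. Levels scale with the denominator. Per 1000000 reads of the library, the means of Mir214, Mir199b and Mir199a-2 were 357, 5.33 and 1.92; per 1000000 aligned reads they were 521, 7.88 and 2.81; without the 10 highest genes in the total they were 2625, 39.0 and 14.1. Without regard to strand Mir199a-2 had 7.04 CPM, from a smaller total. With single libraries left out, Mir214 ranged between 734 and 1504 CPM, Mir199b between 12.0 and 20.5 CPM, Mir199a-2 between 5.56 and 6.30 CPM, Mir199a-1 between 0 and 0.300 CPM and the log2 of Mir214 over Mir199a-2 between 7.04 and 7.90.

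With edgeR's common dispersion, 4 genes were called, 3 higher in replicate 1 and 1 lower, and 0 members, where the log2 ratios were -0.84 for Mir214 and 0.97 for Mir199b (adjusted p = 1 each; over the settings of each gene the adjusted p ran from 6.01e-257 to 1 for Mir214 and from 0.000265 to 1 for Mir199b). By total counts 170 genes were lower in replicate 1. The uncalled ratio of Mir199a-2 turned to -0.19 by total counts, -0.065 by all reads, -0.080 with 5 counts added, -0.024 without regard to strand and -0.16 without the erythroid genes; the cause was not tested. A minimum of 100 counts in mean left 1 member called, as the Mir199 genes were no longer tested, and 25 genes past 2-fold, against 253 with no filter beyond 1 count. With windows of 18 bases, 77.4% of those of Mir199a-2 were in no other miRNA gene. No paired analysis was possible because there is 1 group. Depth limits the Mir199 genes, with 118 counts or fewer each, far more than Mir214.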
